A study of Homo sapiens with 5 samples.

Results

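The 501 introns described here, in 353 genes, were retained more in each of 3 depletions of a splicing factor than in the control of that depletion. They were chosen by measured values: an intron had to be listed in all 3 deposited tables, have an intron depth plus spliced reads of at least 10 in both libraries of each table, and have a retention ratio higher by at least 0.1 in each depleted library. Retention is the share of transcripts that still hold the intron, estimated as the read depth over the intron divided by that depth plus the reads spliced across it, and it is given here in percent, with differences in percentage points. The deposited ratio was used, which departs from this formula by over 0.01 in a library for 34.9% of members and 12.7% of the other tested introns. Of 34560 introns listed in at least 1 table, 8927 were listed in all 3 and 8601 of those passed the depth minimum, so the 501 are 5.82% of the introns tested in all 3. The 8100 tested introns that did not meet the rule serve below as the comparison, and are called the other tested introns.

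Introns are removed from pre-mRNA by the spliceosome, which recognises a 5′ splice site, a branch point, a stretch of pyrimidines and a 3′ splice site, and rearranges in steps before it cuts and joins. WBP11 is a nuclear protein of the spliceosome that binds WW domains, and SNW1, also known as SKIP, is a component of the activated and catalytic spliceosome. An intron that stays in a polyadenylated RNA usually brings a premature stop codon into the reading frame, and many such RNAs are held in the nucleus or degraded. In human genes short introns between GC-rich exons are known as those most often retained.

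DLD-1 LacZeo cells, a form of an established line of colorectal adenocarcinoma, gave polyA RNA for 5 libraries, 1 per group, from cells under passage 10. A control whose treatment the labels give as none (the tables call it the RNAi control), cells given 100 nM WBP11 siRNA for 72 h and cells given 100 nM SNW1 siRNA for 72 h form 2 comparisons that share 1 control library. The third comparison sets cells with WBP11 on an auxin-inducible degron, in which the endogenous WBP11 gene is knocked out, against osTIR1 cells for which no degron is given, both under 500 µM auxin for 48 h. In such cells osTIR1, a plant protein, sends the tagged protein to the proteasome when auxin is present. The degron and the knockout are taken from the series' design text, since the sample labels give both auxin samples the same osTIR1 genotype. Because the control of that pair is then another line and no degron library without auxin was used here, loss of WBP11 and differences between the lines cannot be told apart. No group has a second library, so no difference can be set against a spread between cultures, no p-value is given, and the 95% intervals (Wilson for a level, Newcombe for a difference) cover counting error only.

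The libraries held between 2987572 and 5527186 spliced reads at listed introns, by table. WBP11 had 20 spliced reads after its siRNA against 312 in the control, SNW1 had 31 against 401, and the single listed WBP11 intron of the auxin pair, in the 5′ UTR, had 103 against 235. Of 10 colorectal epithelial markers, CDH1, CDH17, KRT18 and KRT19 were listed in every table. KRT8 was listed only in that of SNW1 siRNA, CDX2 only in that of the auxin pair, and KRT20, EPCAM, VIL1 and LGALS4 in none. None of the 5 fibroblast or 5 leukocyte markers was listed. Only introns the tables list could be searched, so a marker that is not listed may still be expressed.

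Sequences are shown for 5 introns among those with the largest rises and for the 2 shortest members, where an annotated GENCODE transcript holds the intron whole. Each is given 5′ to 3′ on the gene's strand in hg38, with capitals for the first 6 and last 3 bases, the parts of the 5′ and 3′ splice sites that lie within the intron.
ZNF276 intron 7 of 10, chr16:89733413-89733481, plus strand, 69 bp: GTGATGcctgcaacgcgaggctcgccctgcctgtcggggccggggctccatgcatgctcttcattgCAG
LAMB2 intron 26 of 32, chr3:49123374-49123446, minus strand, 73 bp: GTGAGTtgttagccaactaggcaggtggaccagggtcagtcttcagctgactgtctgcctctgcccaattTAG
MTA1 intron 5 of 20, chr14:105450185-105450260, plus strand, 76 bp: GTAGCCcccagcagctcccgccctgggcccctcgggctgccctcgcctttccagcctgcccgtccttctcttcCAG
ZFAND2B intron 5 of 8, chr2:219208349-219208425, plus strand, 77 bp: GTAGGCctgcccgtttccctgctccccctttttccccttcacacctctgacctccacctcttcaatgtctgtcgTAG
MUS81 intron 13 of 15, chr11:65865146-65865219, plus strand, 74 bp: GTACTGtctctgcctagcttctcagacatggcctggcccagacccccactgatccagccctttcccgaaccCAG
PLXNB2 intron 21 of 36, chr22:50281500-50281565, minus strand, 66 bp: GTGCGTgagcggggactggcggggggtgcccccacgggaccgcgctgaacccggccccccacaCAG
HNRNPH1 intron 6 of 12, chr5:179617933-179617988, minus strand, 56 bp: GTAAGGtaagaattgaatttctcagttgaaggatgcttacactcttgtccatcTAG
All 7 lie between coding exons, start with GT and end with AG. Their GC content ran from 37.5% in HNRNPH1 to 78.8% in PLXNB2, and among the 20 bases before the last 3 the number of pyrimidines ran from 12 in PLXNB2 to 17 in MTA1. Of the 249 members whose sequence could be read in this way, 247 had GT to AG ends and 2 had GC to AG ends.

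Of these 7 introns the one in ZNF276, a zinc finger gene, had the largest smallest rise. Its retention was 18.5% in the control (interval 11.4% to 28.4%), 78.6% after WBP11 siRNA (66.7% to 87.0%), 67.5% after SNW1 siRNA (57.3% to 76.3%), 44.1% in the auxin control (35.6% to 53%) and 88.1% in the auxin-treated degron line (82.4% to 92.2%). The 3 depleted libraries lay above both controls without overlap of intervals, and the auxin control lay above the siRNA control. The intron is also marked in the tables as overlapping a known exon, and an exon of other annotated transcripts of the gene spans it.

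LAMB2 (ENSG00000172037.12) encodes the laminin β2 chain, a basement membrane protein. Its intron 26 was retained at 13.0% in the control, 50.4% after WBP11 siRNA, 66.7% after SNW1 siRNA, 31.9% in the auxin control and 80.02% in the degron line. The rises were 37.4 points (interval 29.6 to 44.9), 53.7 points (46.1 to 60.5) and 48.1 points (39.5 to 55.6), so the 2 siRNA rises differed beyond their intervals, and the auxin rise overlapped with both. MTA1, a subunit of the NuRD chromatin remodelling complex, had 15.9%, 52.4%, 51.6%, 35.0% and 89.4% for intron 5 in the same order. Its 2 siRNA rises were within a point of each other, and its rise in the auxin pair, 54.4 points (47.7 to 60.2), lay above both of their intervals.

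ZFAND2B, a zinc finger protein that binds the proteasome, went for intron 5 from 7.13% in the control to 41.9% after WBP11 siRNA and 65.1% after SNW1 siRNA, and from 19.2% to 82.3% in the auxin pair. For this intron the 3 depleted libraries differed from one another beyond their intervals, with WBP11 siRNA lowest and the degron line highest. Intron 13 of MUS81, a structure-specific endonuclease of DNA repair, was at 12.3%, 67.4% and 42.9% in the control, WBP11 siRNA and SNW1 siRNA libraries, and at 26.2% and 89.0% in the auxin pair. Here WBP11 siRNA lay above SNW1 siRNA, the reverse of the order in ZFAND2B.

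The 2 shortest of the printed introns rose far more in the auxin pair than with either siRNA. Intron 6 of HNRNPH1, a splicing regulator of the hnRNP family, had the deepest coverage of the 7, with 1373 to 2983 reads of depth plus spliced reads. It was retained at 3.38% in the control, 15.6% after WBP11 siRNA, 25.6% after SNW1 siRNA, 4.73% in the auxin control and 66.4% in the degron line. Intron 21 of PLXNB2, a semaphorin receptor, was at 6.35%, 26.5%, 24.0%, 11.5% and 58.1% in that order. The 2 siRNA rises of PLXNB2 had overlapping intervals (16.6 to 23.7 and 13.8 to 21.7 points), and the auxin rise was 46.6 points (42.3 to 50.6).

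**Figure D1:**
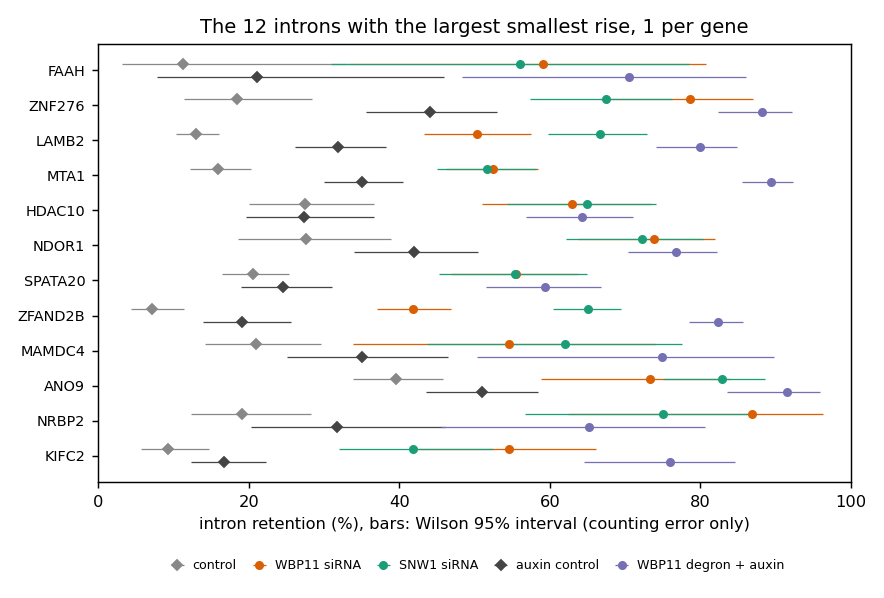
Retention (%) in the 5 libraries of the 12 introns with the largest smallest rise, 1 per gene, with diamonds for the 2 controls, circles for the 3 depleted libraries and bars for the Wilson 95% interval, which covers counting error only. In all 12 the depleted libraries lie to the right of their own control, which the rule required, and for FAAH, MAMDC4 and NRBP2 the bars are wide.

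Ranked by the smallest of the 3 differences, the 20 leading introns, 1 per gene, included those in FAAH, ZNF276, LAMB2, MTA1, HDAC10, NDOR1, SPATA20, ZFAND2B, MAMDC4, ANO9, NRBP2, KIFC2, TUBGCP6, ABCC3, PLXNB1, RECQL4, COL7A1, MUS81 and CTC1, and the plot of the leading introns shows the first 12 of them. FAAH, which degrades fatty acid amides such as anandamide, stands first, with intron 9 (chr1:46409199-46410397, 1199 bp) at 11.3%, 59.1%, 56.1%, 21.1% and 70.6% in the order used above. Its libraries held 12.7 to 19.4 reads of depth plus spliced reads, and the interval of its rise after WBP11 siRNA ran from 14.0 to 71.0 points. Its place at the head of the ranking is therefore less certain than that of LAMB2 or MTA1, whose libraries held at least 186.3 and 215.0 reads.

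HDAC10, a deacetylase of polyamines, and SPATA20 had rises of nearly 1 size in value in all comparisons, with wide intervals. Intron 10 of HDAC10 (189 bp) rose by 35.4, 37.4 and 37.0 points, and intron 12 of SPATA20 (320 bp) rose by 34.9, 34.8 and 34.8 points. PLXNB1, another semaphorin receptor, had rises of 32.8 (19.8 to 44.7), 31.8 (19.5 to 42.9) and 31.6 points (19.5 to 42.7) for intron 29 (309 bp). The auxin rise of MTA1, ZFAND2B, KIFC2, RECQL4, TUBGCP6 and MUS81 was above 50 points.

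**Figure D2:**
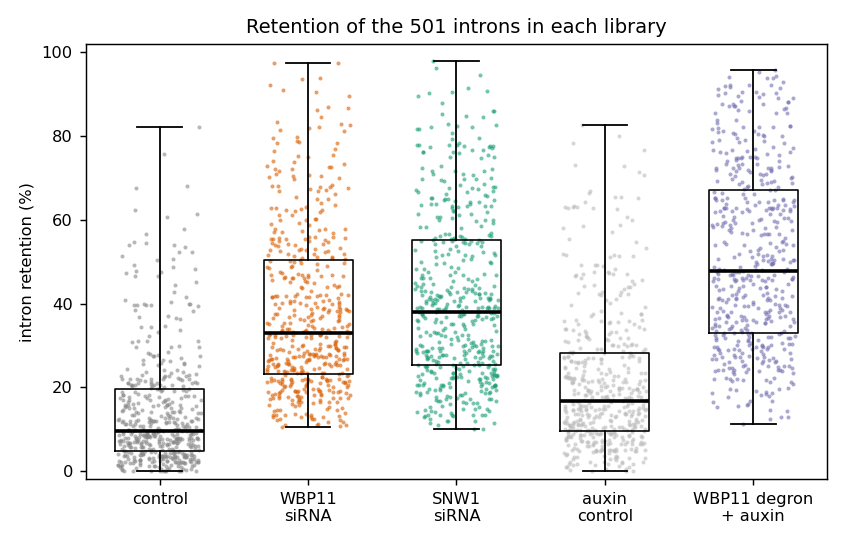
Retention (%) of each of the 501 introns in the 5 libraries, with 1 point per intron, boxes from the first to the third quartile, a line at the median and whiskers to the lowest and highest value. The medians are 9.68%, 33.0% and 38.0% in the siRNA set and 16.6% and 47.8% in the auxin pair.

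Over all members the median retention was 9.68% in the control, 33.0% after WBP11 siRNA, 38.0% after SNW1 siRNA, 16.6% in the auxin control and 47.8% in the degron line. The other tested introns had medians of 2.22%, 2.92%, 6.52%, 3.32% and 5.98%. The members' median rises were 20.6, 24.4 and 25.6 points, where the median difference over all 8601 tested introns was 0.932, 4.23 and 2.23 points. By the same 0.1 threshold 11.1% of the tested introns were higher after WBP11 siRNA, 26.0% after SNW1 siRNA and 21.7% in the auxin pair. These shares, like the rises, come from the contrasts that chose the members, and the 2 siRNA comparisons use the same control values, so a low control value enters both.

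Single rises spanned a wide range, from 10.0 to 70.4 points after WBP11 siRNA, up to 68.5 after SNW1 siRNA and up to 86.3 in the auxin pair. The auxin pair gave the largest of the 3 rises in 211 members, SNW1 siRNA in 196 and WBP11 siRNA in 94. Retention was over 50% in 129 members after WBP11 siRNA, 153 after SNW1 siRNA and 235 in the degron line, and 81 members passed 50% in all 3. The controls had 19 and 36 such introns among the members, and 133 members were under 10% in both controls.

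Counting error was smaller than the rise in most but not all members. The intervals are of the same differences that chose the members, so the counts above 0 are a description and follow in part from the rule. Intervals of the rise were wholly above 0 for 448 members after WBP11 siRNA, 466 after SNW1 siRNA and 443 in the auxin pair, and for 390 in all 3. In 65 members a library held fewer than 20 reads of depth plus spliced reads, and in 312 every library held 50 or more. The caller gave no warning, such as uneven coverage or a minor isoform, in any library for 147 of the 501 members. The same held for 15.9% of the other tested introns.

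The members were retained more in the auxin control than in the siRNA control in 424 of 501 cases, with a median difference of 5.58 points. Among the other tested introns 67.4% were higher in the auxin control, with a median difference of 0.811 points. These 2 controls differ in osTIR1 and in auxin, and in which library they are. They may also differ in a control siRNA and in time in culture, since no time is given for the siRNA control. For those 424 members the auxin rise was thus measured from a higher control level than the siRNA rises.

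The ratio can rise through more reads in the intron, fewer spliced reads, or both, and members showed both. These 2 parts make up the ratio that chose the members, so their values are a description. Scaled to the spliced reads at all 8601 introns and with a pseudocount of 1, the median log2 change of intron depth in members was 1.13 after WBP11 siRNA, 1.60 after SNW1 siRNA and 1.15 in the auxin pair, against 0.26, 1.31 and 0.71 in the other tested introns. The median log2 change of spliced reads was -0.97, -0.67 and -1.03 in members, against 0.02, 0.08 and 0.07 in the others. Spliced reads were lower in 459, 399 and 440 of the 501 members, and intron depth was higher in 438, 482 and 446. Of the other tested introns, spliced reads were lower in 49.1%, 45.75% and 46.9%, and intron depth was higher in 58.6%, 88.7% and 73.5%. Intron depth was thus also higher in most of the other tested introns, most often after SNW1 siRNA. In RNA from whole cultures, a change in every cell and one in some of the cells cannot be told apart.

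Members were short. Their median length was 139 bp (quartiles 83 to 296 bp), against 311.5 bp (116 to 1030 bp) in the other tested introns. Introns of at most 100 bp made up 38.3% of members and 20.4% of the others, and introns over 1000 bp made up 4.59% and 25.5%. Read the other way, 17.3% of tested introns of up to 80 bp were members, and 1.10% of those over 1000 bp. The medians lay closer together where mean control retention was high. They were 121 against 348.5 bp from 1% to 5%, 127.5 against 275 bp from 5% to 10%, and 136 against 237 bp from 10% to 20%. From 20% to 40% they were 208 against 244 bp, and over 40% they were 196 against 191.5 bp. The part of control retention in the difference in length was not tested. Length was not used by the rule, but introns of one gene are not independent and no test was made of this or the following features.

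**Figure D3:**
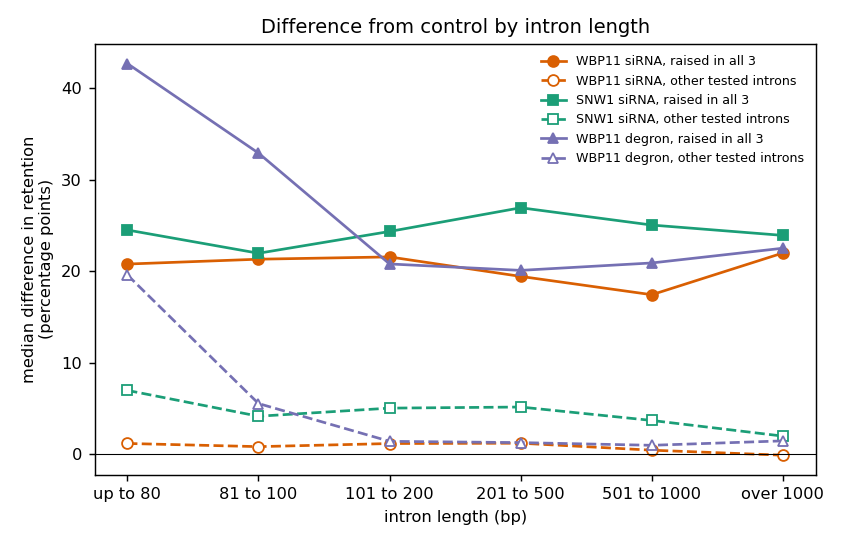
Median difference in retention from control (percentage points) by intron length (bp) for WBP11 siRNA, SNW1 siRNA and the WBP11 degron with auxin, with filled markers and solid lines for the 501 introns raised in all 3 and open markers and dashed lines for the other tested introns. The degron line of the 501 introns falls from 42.7 points at up to 80 bp to 20.8 points at 101 to 200 bp, and the siRNA lines stay between 17.4 and 27.0 points.

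Among members the rise in the auxin pair differed with length and the siRNA rises did so less, as the plot of differences by length shows. In members of up to 80 bp the median rise was 20.8 points after WBP11 siRNA, 24.5 after SNW1 siRNA and 42.7 in the auxin pair. From 101 to 200 bp the 3 medians were 21.6, 24.4 and 20.8 points, and over 1000 bp they were 22.0, 23.9 and 22.5. The auxin rise exceeded the WBP11 siRNA rise in 96 of 112 members of up to 80 bp, with intervals wholly apart in 52 and in none the other way round. From 101 to 200 bp it did so in 57 of 115 members, with intervals apart in 4 in each direction. Of the other tested introns up to 80 bp it did so in 484 of 535, with intervals apart in 316, and in 2 the other way round. From 101 to 200 bp it did so in 789 of 1484 of the others, with intervals apart in 65, and in 40 the other way round. The other tested introns of up to 80 bp had medians of 1.20, 7.0 and 19.6 points, so the larger difference in short introns of the auxin pair was not limited to members.

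HGS, TBL3 and RINT1 had the largest excess of the auxin rise over the siRNA rises. Intron 9 of HGS (72 bp), a subunit of the ESCRT-0 sorting complex of endosomes, was at 4.19%, 27.2%, 22.7%, 13.7% and 87.2% in the order used above. Intron 17 of TBL3 (71 bp), a factor of ribosomal RNA processing, was at 3.91%, 16.9%, 18.5%, 6.44% and 70.2%, and intron 13 of RINT1 (72 bp), a vesicle tethering protein, at 0.535%, 11.8%, 13.3%, 3.56% and 64.7%. In each of the 3 the degron library stood far above the other 4, which lay at or under 27.2%.

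The excess was in SNW1 siRNA for WDR90, CDCA5 and HIP1R. Intron 16 of WDR90 (69 bp) rose by 68.5 points after SNW1 siRNA and by 10.2 and 19.0 points in the other comparisons, but the interval of its rise after WBP11 siRNA ran from -8.15 to 33.8. Intron 18 of HIP1R (886 bp), a protein that links clathrin coats to actin, was at 20.5%, 35.2%, 84.9%, 22.6% and 51.4%. The excess was in WBP11 siRNA for NRBP2 intron 17, TRPV1 intron 4 and CUL9 intron 3, each with a library of 14.6 reads or fewer. For the heat-gated channel gene TRPV1 the auxin control was already at 58.4%, against 7.14% in the siRNA control.

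The exons beside members were richer in G and C. Over up to 50 exon bases on each side the median GC content was 60% (quartiles 55% to 64%) for members and 56% (48% to 61%) for the other tested introns. The members' median was above that of the others in each of the 6 length classes, for example 61% against 59% up to 80 bp and 57% against 50.5% over 1000 bp. By mean control retention the medians were 58.6% against 55% from 1% to 5%, 59% against 57% from 5% to 10%, and 59% against 58% from 10% to 20%. From 20% to 40% and over 40% they were 61% against 59%. Under 1%, with 4 members, they were 49% against 53%. The last base of the exon before the intron was G for 73.3% of members and 76.2% of the others, and the last 2 bases were AG for 43.9% and 48.8%.

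Many members are kept in RNAs already annotated. An exon of another GENCODE transcript on the same strand spans 249 members (49.7%) and 22.7% of the other tested introns, and a transcript of the class retained intron does so for 43.3% and 18.4%. The share was higher in members in each length class, from 57.1% against 44.5% up to 80 bp to 26.1% against 5.97% over 1000 bp. It also moved with retention in the controls, which is higher in members: where the mean of the 2 controls was 5% to 10% the shares were 36.9% and 32.5%, from 10% to 20%, the class with the most members (157), they were 56.7% and 41.8%, from 20% to 40% they were 60.9% and 56.9%, and over 40% they were 74.5% and 82.6%. The part of control retention in the annotated share was not tested. The tables' own mark for overlap with a known exon was on 9.98% of members and 5.80% of the others.

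**Figure D4:**
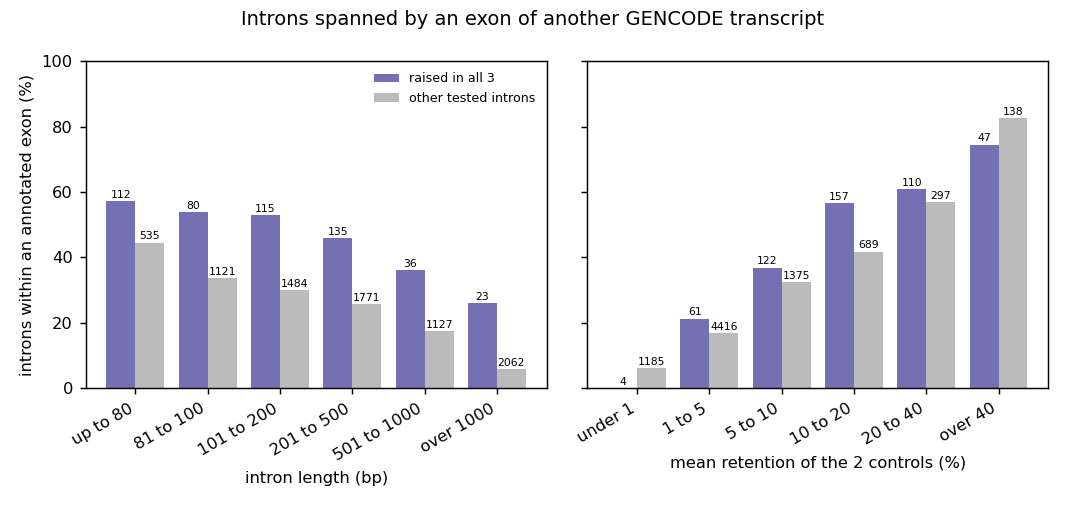
Share of introns (%) that lie within an exon of another GENCODE transcript, by intron length (bp, left) and by the mean retention of the 2 controls (%, right), for the 501 introns raised in all 3 and the other tested introns, with the number of introns above each bar. The share of the 501 is the higher one at every length and from 1% to 40% control retention, and the lower one under 1%, where there are 4 of them, and over 40%.

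By position, 489 members (97.6%) lie between coding exons, 3 in the 5′ UTR, 6 in the 3′ UTR and 3 in noncoding transcripts, against 97.1% coding among the others. The length was a multiple of 3 in 30.5% of the coding members and 32.9% of the others. Members were seldom first introns (2.40% against 4.59%) or last introns (8.78% against 12.7%). Their transcripts had a median of 18 introns over 15090 bp, against 14 introns over 21250 bp, so they came from transcripts with more introns in a shorter span. Members made up 12.3% of the tested introns of chromosome 8, 10.1% of chromosome 22 and 9.12% of chromosome 3, and 1.62% of chromosome 10. On chromosome 3, COL7A1, NBEAL2 and LAMB2 held 25 of the 49 members, and without these 3 genes the share was 5.04% (24 of 476).

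Members gathered in some genes. A single member was found in 272 genes, and the 81 genes with 2 or more held 229 of the 501. Member genes had a median of 4 tested introns, against 1 over all tested genes. The part of this number in the count of members per gene was not tested. Of the tested introns next to a member in the same transcript 27.8% (90 of 324) were members themselves, against 7.19% of those next to other tested introns. Over all 1727 tested introns of member genes the share was 29.01%, where each gene holds at least 1 member by definition. The 27.8% was thus not above the share in these genes. Whether members lie close together within a gene was not tested. The remaining tested introns of member genes, 1226 in 310 genes, were higher in 11.2% after WBP11 siRNA, 37.5% after SNW1 siRNA and 26.3% in the auxin pair, against 4.66%, 18.5% and 15.1% in genes without members. They were also short, with a median of 145.5 bp against 379 bp, and had flanking exons of 60% against 54% GC. The part of length and GC content in their difference was not tested.

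COL7A1 (ENSG00000114270.14) held the most members, 10 of its 22 tested introns. It encodes type VII collagen, which forms the anchoring fibrils of skin and mucosa, in a transcript with 117 introns. Intron 76 (chr3:48574722-48574796, 75 bp) was at 5.77%, 55%, 53.01%, 17.0% and 48.2% in the order used above, and intron 115 (208 bp) at 7.76%, 61.1%, 55.2%, 22.8% and 42.1%. In both the siRNA libraries exceeded the degron line in value, though with overlapping intervals, where the short introns of HNRNPH1 and PLXNB2 had the degron line highest. The gene's depth was low after WBP11 siRNA, with 10.7 to 20.6 reads for its members (12.3 for intron 76). Its members had 10.95 to 35.3 reads in the degron line and 10.05 to 67.8 after SNW1 siRNA. The interval of the rise after WBP11 siRNA included 0 for introns 50, 67, 88 and 91. That of the auxin rise included 0 for introns 92, 114 and 115, where the last ran from -0.951 to 39.97 points. Only introns 76, 77 and 90 had intervals above 0 in all 3 comparisons. Members and other introns alternate along the gene: introns 90, 91 and 92 were members, and intron 93 (132 bp) differed by 13.3, 12.9 and -4.98 points.

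**Figure D5:**
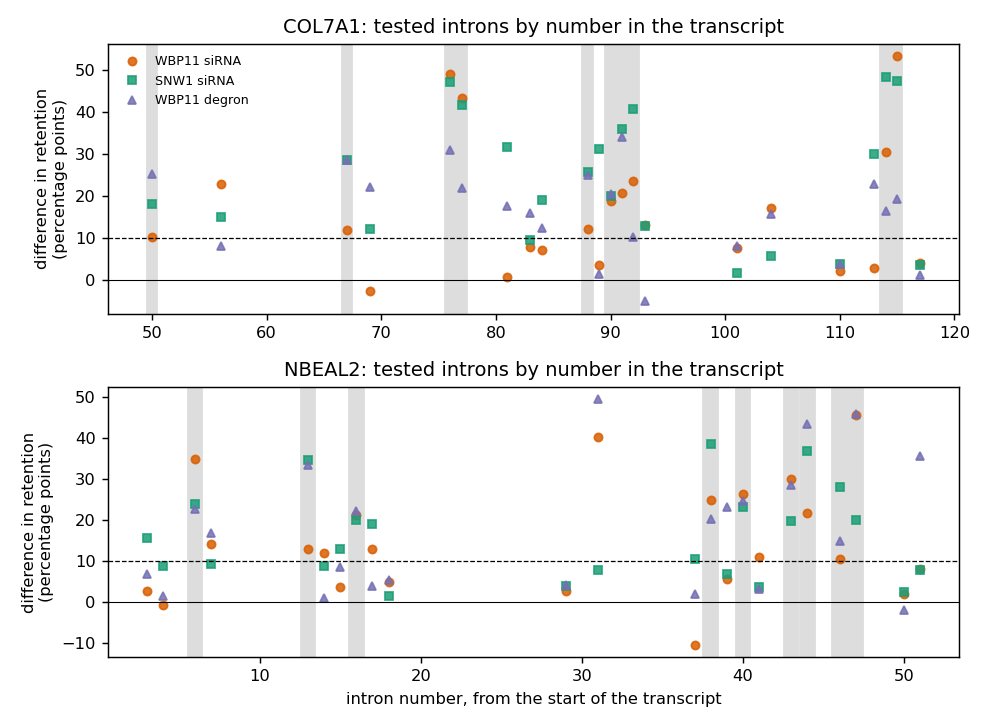
Difference in retention from control (percentage points) of each tested intron of COL7A1 (22 introns) and NBEAL2 (23 introns) by intron number, for WBP11 siRNA, SNW1 siRNA and the WBP11 degron with auxin. Grey bands mark the introns raised in all 3, the dashed line is at 10 points, and introns beside the bands lie near 0 in at least 1 comparison in several places.

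NBEAL2 (ENSG00000160796.15), a BEACH domain protein needed for platelet α-granules, held 9 members of 23 tested introns, among 53 in its transcript. Intron 44 (chr3:47006263-47006332, 70 bp) was at 3.70%, 25.4%, 40.5%, 12.3% and 55.8%, and intron 47 (174 bp) at 12.2%, 57.8%, 32.2%, 26.2% and 71.9%. WBP11 siRNA was thus under SNW1 siRNA in one and above it in the other intron of the same RNA. Intron 31 (82 bp) was no member although it rose by 40.3 and 49.4 points in the WBP11 comparisons, because its difference after SNW1 siRNA was 7.69 points. The plot of both genes shows other introns of this kind, raised in some comparisons and not in all.

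ACADVL, the mitochondrial very long-chain acyl-CoA dehydrogenase, had 6 members of 14 tested introns, with at least 502.8 reads in every library of its intron 3. Its last intron, 19 (chr17:7224885-7224956, 72 bp), was at 3.39% (2.63% to 4.38%), 24.0% (20.8% to 27.4%), 26.1% (23.0% to 29.5%), 9.53% (8.04% to 11.3%) and 68.1% (64.3% to 71.7%). All 3 depleted libraries lay above both controls beyond these intervals, and the degron line lay above the siRNA libraries. Yet introns 1, 2, 8, 9 and 10 of ACADVL were lower in the auxin pair, by 2.0 to 11.5 points, while each was higher by at least 11.1 points after SNW1 siRNA. The interval of the auxin difference lay wholly below 0 only for introns 9 and 10 of these.

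LAMB2 also had 6 members, of 16 tested introns, and 3 of them were the consecutive introns 26, 27 and 28. Their rises lay between 35.5 and 40.2 points after WBP11 siRNA, 44.2 and 53.7 after SNW1 siRNA, and 32.2 and 48.1 in the auxin pair, while intron 29 differed by 1.0, 2.5 and 26.4 points. MAMDC4, an apical endosomal glycoprotein, had 7 members of 16 tested introns, of 68 to 134 bp, at low depth (14.8 reads in the shallowest library of intron 5). MAN2C1, a cytosolic α-mannosidase, had 5 members of 8 tested introns, with rises from 14.5 to 37.6 points over the 3 comparisons.

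TUBGCP6 and CDCA5 take part in centriole duplication and in sister chromatid cohesion. TUBGCP6, a protein of the γ-tubulin ring complex (ENSG00000128159.10), had 3 members, introns 17, 18 and 20, of 13 tested, and these were all 3 members among the 25 tested introns of genes of that complex (12%). Intron 20 (chr22:50218898-50219067, 170 bp) was at 6.40%, 40.2%, 38.9%, 16.8% and 74.4%, with intervals of the 3 rises from 20.9 to 46.1, 20.1 to 44.3 and 45.4 to 67.0 points. Intron 21, next to it, differed by 1.2, 4.9 and -0.256 points. Intron 22 (85 bp) rose by 49.2 points in the auxin pair and 18.9 after SNW1 siRNA but by 1.71 after WBP11 siRNA. CDCA5, known as sororin, which keeps cohesin on chromatin until mitosis, had 1 member of 4 tested introns. Intron 1 (chr11:65083724-65083932, 209 bp) was at 3.77%, 29.9%, 69.2%, 21.2% and 33.0%, with SNW1 siRNA highest and the auxin rise the smallest, 11.7 points (4.22 to 18.5). Introns 2 and 3 of CDCA5 rose by 23.6 and 39.1 points in the auxin pair and by at most 3.32 points with either siRNA.

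Members were counted in 23 lists of genes, each beside the 5.82% of all tested introns. The lists were chosen with earlier results of these data known, so their shares and order are a description only. The list of plexins, laminins and collagens held the most: 23 of its 107 tested introns (21.5%) were members, in COL7A1, LAMA5, LAMB2, PLXNA3, PLXNB1, PLXNB2 and PLXNB3. Of those 23, COL7A1 accounts for 10 (of 22 tested introns) and LAMB2 for 6 (of 16), and both are among the genes with the most members. Solute carriers had 11 members of 160 tested introns (6.88%) in 8 genes, among them SLC29A2, a nucleoside transporter, whose intron 4 rose by 37.8, 27.9 and 29.8 points. ABC transporters had 5 of 54 (9.26%), in ABCB6 and in ABCC3, an exporter of organic anions. ABCC3 intron 14 (335 bp) was at 14.5%, 65.6%, 60.0%, 26.1% and 57.6%.

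In lists of chromosome replication, repair and segregation the shares ran from 2.78% to 11.6%, on both sides of the 5.82% of all tested introns. The DNA replication list had 5 of 43 (11.6%), of which RECQL4 held 3, with the others in POLE and TIMELESS. POLE, the catalytic subunit of DNA polymerase ε, had a 73 bp intron 17 at 19.7%, 41.9%, 42.4%, 21.8% and 86.2%. Cohesion genes had 3 of 29 (10.3%), in CDCA5, the helicase DDX11 and ESPL1, the protease separase. Recombination and Fanconi genes had 3 of 53 (5.66%), in EME2, FANCI and MUS81, and intron 16 of FANCI (1300 bp) rose by 40.7, 28.9 and 53.2 points. MUS81 and EME2 are known as partners in 1 nuclease. The spindle checkpoint list had 1 of 36 (2.78%), in KNTC1, and kinesins 2 of 34 (5.88%), in KIF15 and KIFC2. Centriole genes had 2 of 64 (3.12%), in TEDC2 and in SASS6, a protein of the centriole's cartwheel, whose 74 bp intron 10 rose by 13.7, 15.2 and 32.2 points.

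Other lists had few or none. DEAD and DEAH box helicases had 3 of 85 in DDX11, DDX51 and DHX30, RNF and TRIM ubiquitin ligases 2 of 93 in RNF123 and TRIM3, zinc finger ZNF genes 1 of 87 in ZNF276, aminoacyl-tRNA synthetases 1 of 40 in MARS1, the p53 pathway 1 of 29 in TNFRSF10B and the proteasome 1 of 38 in PSMB4. PSMB4 intron 5 (186 bp) is 1 of the best covered members, with at least 1321 reads in every library, and was at 3.50%, 19.1%, 14.9%, 3.54% and 16.7%. None of the 13 tested introns of U1, U2 and Sm protein genes was a member, none of 24 in the U4, U5, U6 and B complex list, none of 26 in the PRP19 and C complex list, none of 21 in SR protein and CLK genes, none of 18 in nonsense-mediated decay, none of 59 in ubiquitin-specific proteases and none of 9 in ribosomal protein genes. Several of these lists had few introns tested. WBP11 and SNW1 had no intron tested in all 3 tables.

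The members with the highest control retention were in LRRC14, CENPT and MAMDC4. LRRC14 intron 1, in a noncoding transcript, was at 82.2%, 97.4%, 96.2%, 82.5% and 94.2%, and CENPT intron 11, in a kinetochore gene, at 75.6%, 93.6%, 94.5%, 80.1% and 90.4%. Those with the lowest were in PCNX3, ATG2B and TRAPPC8. PCNX3 intron 17 was listed at 0 in both controls, which, by the limit of 3 reads that a count of 0 allows, leaves room for a share of up to 5.00% and 3.57%, and was at 12.8%, 13.0% and 18.2% in the depleted libraries. TRAPPC8 intron 10, the longest member with 3033 bp, went from 0.451% to 10.7% and 12.1% with siRNA, and from 0.470% to 38.6% in the auxin pair. TRAPPC8 encodes a subunit of the TRAPP vesicle tethering complex. FCHO2, an endocytic protein, and MPND held the next longest members, of 2484 and 2079 bp.

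At the threshold, KAT2A intron 10 was just inside, with an auxin rise of 10.02 points, as were ISYNA1 intron 6 and CAP2 intron 10, with SNW1 siRNA rises of 10.0 points. Just outside were COMMD3-BMI1 intron 4 (9.96 points after WBP11 siRNA), PPP1R12C intron 11 (9.98 in the auxin pair) and SLC4A11 intron 11 (9.98 after SNW1 siRNA). The gap between these 2 sets was far smaller than the intervals of their rises. ISYNA1 rested on 10 to 13.2 reads in 4 libraries, and the interval of its rise after SNW1 siRNA ran from -15.6 to 40.4 points.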

How the data were processed

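The files hold 3 deposited two-library tables. IRFinder made them from directional STAR alignments to hg38, per the file headers; RSEM and bedtools also stand in the submitters' processing notes, without versions. The retention ratio and the covered part of an intron are deposited as a fraction, the intron depth as a coverage signal, and the spliced reads as a count; none was scaled between libraries. The deposited ratio differed by over 0.01 from depth over depth plus the larger count of spliced reads in 175 of 501 members (34.9%) and in 12.7% of the other tested introns, and was used as deposited. The p-values in the tables set single libraries against each other and were left out.

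The members and gene lists were chosen with earlier results of these data known, and so were TUBGCP6 and CDCA5. The rule and the intervals are given in the report. The siRNA comparisons share their control library, whose depths and spliced reads were the same in both tables. Introns were matched to GENCODE release 29 (hg38, counted from 1) for number, region, flanking exon bases and spanning exons. Without a genome, intron sequence was read only where a transcript spans the intron, which is 49.7% of members, so the planned comparison of intron GC content and splice site scores is void, and flanking exon bases were used instead. Scripts (Python 3.11.15, pandas 2.3.3, numpy 2.4.6) were tested on simulated data.

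Introns named are the 20 with the largest smallest rise (1 per gene; 1 of them is not reported here), those of the 6 genes with most members, up to 2 per list, TUBGCP6 and CDCA5, the 3 on each side of the threshold, the 3 highest and lowest in the controls, the 3 shortest and longest, and the 3 in which each comparison most exceeds the others.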

Additional observations from a re-analysis of the deposited data

How the results depend on the processing

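A threshold of 0.05 gave 1075 of 8601 tested introns (12.5%) and one of 0.2 gave 148 (1.72%), beside 501 (5.82%) by the rule. A depth minimum of 50 gave 312 of 5683 (5.49%), and leaving out every intron with a caller warning gave 147 of 1436 (10.2%). Not requiring WBP11 siRNA gave 1154 of 13028 (8.86%) and not requiring the auxin pair gave 947 of 12751 (7.43%). In the following settings the count stayed within 1.5 times 501. It was 549 of 8917 (6.16%) with no depth minimum and 390 of 8601 (4.53%) with intervals above 0 in all 3. Leaving out known-exon introns gave 451 of 8081 (5.58%), exactly spliced reads in the ratio 559 of 8601 (6.5%), and not requiring SNW1 siRNA 723 of 10391 (6.96%). The median length moved to 107 bp without warnings, 127 bp without the SNW1 requirement and 184 bp without the auxin requirement, and was between 129 and 167 bp otherwise. The share of introns within an annotated exon, examined under these settings only after the data were seen, was 42.4% at 0.05, 55.4% at 0.2, 56.1% at a depth of 50, 57.1% without warnings, 44.3% without known-exon introns and also without the WBP11 siRNA requirement, and 45.1% without the SNW1 requirement. The median GC content of flanking exon bases, also added later, stayed between 59% and 61%. Where fewer introns were tested, fewer could qualify; other causes of these shifts were not tested. The alternatives for intron GC content were not run because that comparison is void. No paired analysis was possible because each group has 1 library, and no library could be left out. With 1 library per group the counts of reads limit each value, and the spread between cultures is unknown.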
